A study of Homo sapiens with 8 samples.

Results

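This account describes the KYSE30 sublines that passed a porous membrane against the KYSE30 sublines that did not. KYSE30 is an established human cell line from an esophageal squamous cell carcinoma, a tumor of the stratified epithelium that lines the gullet. The comparison rests on 4 of the 8 arrays of the series, chosen by their titles, and runs across 14180 genes. The other 4 arrays hold the matching sublines of a second carcinoma line, KYSE180.

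Cells had gone through 4 transwell selections, in which motile cells crawl through the pores of an insert. Cells of the lower side, which passed, make up group 30D and are labelled as more motile. Cells of the upper side, which did not pass, make up group 30U and are labelled as less motile. Both groups hold 2 arrays and none carries an engineered allele or an added agent. One parental population (30-A) gave 30U-1 and 30D-1, and another (30-B) gave 30U-2 and 30D-2, so each population yields a D minus U difference of its own. The sublines were kept in culture for 2 passages between harvest and RNA extraction. The cells measured are therefore descendants of those that were sorted by the membrane, and no unselected parental cells were analysed here.

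Movement through pores draws on several systems that a transcript profile can read. Cells loosen or rebuild their junctions, in which cadherins and desmosomal proteins hold neighbours together and connexins form channels between them. They also remodel the extracellular matrix, reshape the actin cortex, and respond to growth factors and chemokines. Squamous cells carry in addition a differentiation programme set by transcription factors such as SOX2, with keratins as its structural output.

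All expression values are log2 levels from the RMA procedure, and every change is the 30D mean minus the 30U mean on that scale, given ± its standard error. The 2 arrays of 30U correlated at 0.998 and those of 30D at 0.998, against 0.992 between the groups. The 3′ minus 5′ signal of ACTB, which rises with RNA degradation, was between 1.06 and 1.27 on the 4 arrays, with 30D-1 lowest. The level below which probe sets were left out was 4.46, called the filter value here; a group mean under it is read only as a bound. Of 12 squamous epithelial markers measured, 11 exceeded the filter value, with a median level of 10.45. KRT14 lay below it, and KRT5, the partner keratin of basal cells, stood just above, between 4.48 and 4.84. Markers of other cell types were low but not all below the filter value. It was exceeded by 4 of 8 for fibroblasts (median 4.27, highest 6.83), 2 of 7 for immune cells and 5 of 6 for endothelium. For neural or melanocytic cells it was exceeded by 5 of 7, and for simple or glandular epithelium by 4 of 7. The highest of all was 7.78 for MITF in the neural or melanocytic list, above the median of 7.44 over all tested genes. None of these other markers passed the threshold between 30D and 30U. The simple or glandular list left out KRT7, KRT8, KRT18 and KRT19, keratins of simple epithelia. Their 30U means were 9.78, 12.74, 13.58 and 13.08, far above KRT5, and none of them passed between 30D and 30U.

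Of the 14180 genes, 2346 (16.5%) changed at an adjusted p below 0.05 in limma, 1194 upward (8.42%) and 1152 downward (8.12%) in 30D. Changes of at least 2-fold were reached by 85 (0.599%), of which 29 were higher (0.205%) and 56 lower (0.395%). Non-overlap of the groups is a weak criterion with 2 arrays each, since it was met by 64.7% of all genes. It was met by all 2346 changed genes, so it adds nothing to a call. With the parental population as a block, 1616 of the 2346 were still called. Without 30U-1, 30U-2, 30D-1 or 30D-2 the number called was 902, 834, 902 and 873. Counts of list members below are given with the number that were called in each of the 8 fits leaving out 1 array, named the stable members. Over all genes 308 rises and 322 falls were stable. Every list count below is to be read against the shares over all genes, 8.42% higher and 8.12% lower. Of the 2346, 33 had both group means below the filter value. They stay in all counts, including those of lists, although their differences are not read as changes. Of the 85 genes past 2-fold, 15 had at least 1 group mean below the filter value, so that their folds are bounds. Some of the bounds given below are under 2-fold.

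The parental populations showed much the same changes. The changes in 30-A and 30-B, which share no array, correlated at 0.755 across genes, which are not independent replicates. They had the same sign for 10536 genes, or 74.3%. All 2346 changed genes had the same sign in both, a property that the test favours. Among them the median size of the change was 0.36 and the median difference between populations 0.07. The test favours this too, since it calls genes whose arrays lie close together within a group. Over all tested genes the standard deviation of the difference between populations was 0.18. Of the 85 genes with a 2-fold change on average, 65 reached 2-fold in both populations separately.

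**Figure D1:**
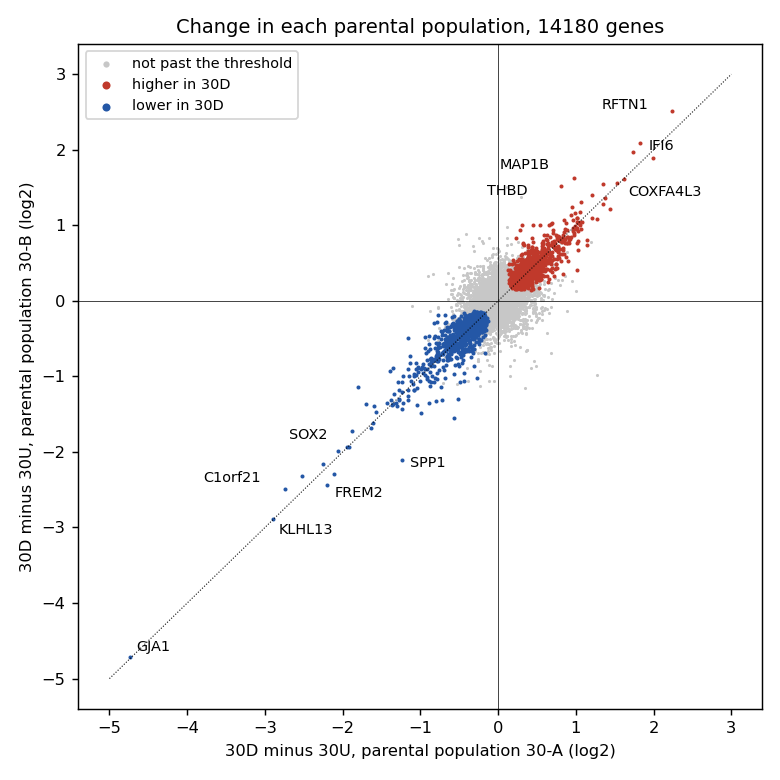
Each point is a gene, with its change (30D minus 30U, log2) in parental population 30-A on the horizontal axis and in 30-B on the vertical axis; the dotted line marks equal change. GJA1 stands alone at the lower left, and the changed genes (red higher, blue lower in 30D) lie along the line; levels below the filter value are plotted as measured.

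Connexins, the subunits of gap junctions, moved in both directions. GJA1, which encodes connexin 43, read 7.63 and 7.60 in 30U-1 and 30U-2, and 2.90 and 2.89 in 30D-1 and 30D-2. Both 30D arrays lay far below both 30U arrays and under the filter value, so its fall is bounded at no less than 8.94-fold (limma adjusted p = 7.86e-08). GJB6, which encodes connexin 30 of stratified epithelia, rose from 6.09 and 5.99 to 6.80 and 6.89, a change of 0.80 ± 0.06. GJA3, which encodes connexin 46, rose from 4.60 and 4.55 to 5.61 and 5.64 (1.05 ± 0.08), although its other probe set did not move (0.00 ± 0.08, adjusted p = 0.992). In the gap junction list 5 of 12 members rose and 1 fell, of which 2 and 1 were stable, and the list's median was 0.12 against 0.01 over all genes. The other rises were GJB2 (0.43 ± 0.08), GJB5 (0.32 ± 0.06) and GJA4 (0.43 ± 0.11). GJB2 lost its call without 30D-2, 30U-1 or 30U-2 (adjusted p up to 0.0893), GJB5 without any 1 of the KYSE30 arrays (up to 0.0937), and GJA4 without 30D-1, 30D-2, 30U-2 or any KYSE180 array (up to 0.162).

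**Figure D2:**
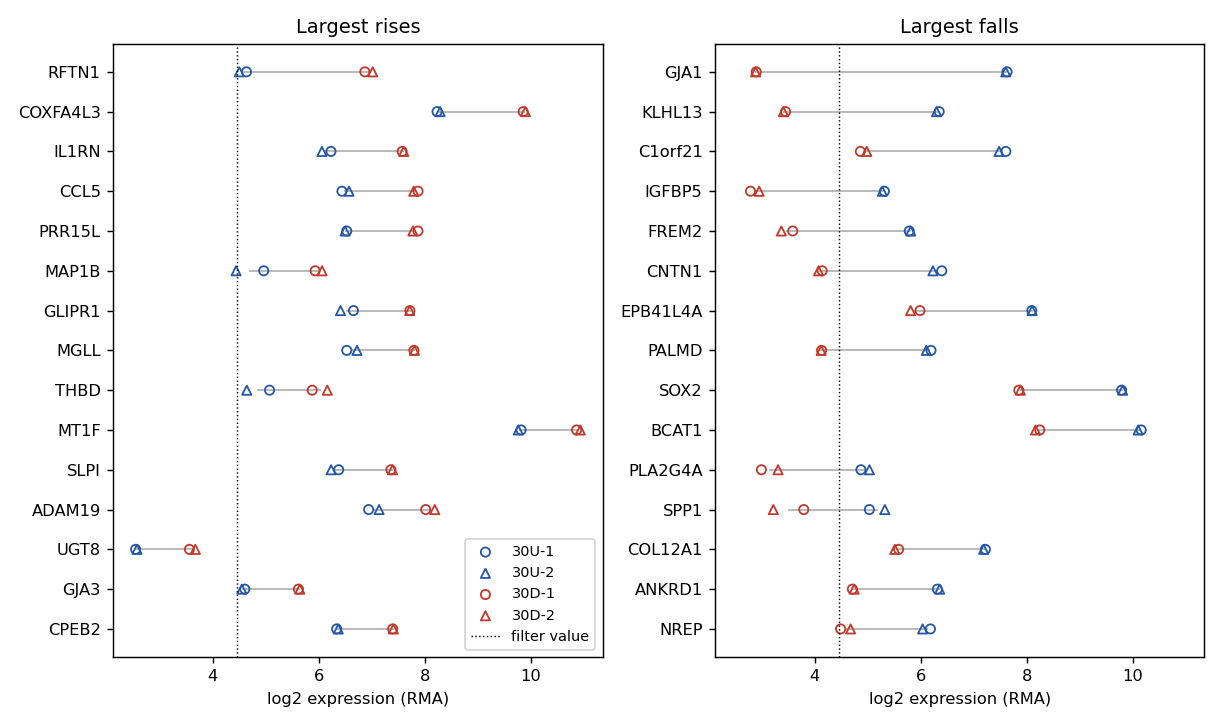
Log2 level on each KYSE30 array for the 15 largest rises and 15 largest falls outside the interferon and cholesterol lists; blue symbols are 30U, red symbols 30D, circles population 30-A, triangles 30-B, and the dotted line is the filter value of 4.46. The 2 arrays of a group lie close together for most genes, with wider spread for MAP1B, THBD and SPP1, and UGT8 stays below the filter value on all 4 arrays, so that its difference is not read as a rise.

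RFTN1, a lipid raft protein, read 4.63 and 4.50 in 30U against 6.87 and 7.02 in 30D (2.37 ± 0.09, adjusted p = 3.38e-05). The caveolar coat proteins CAVIN3 (0.58 ± 0.06) and CAVIN1 (0.48 ± 0.07) rose with it, the only 3 members called among 15 of the caveola and raft list, all stable. CNTN1, a cell surface protein of the immunoglobulin family, read 6.40 and 6.23 in 30U and 4.14 and 4.07 in 30D. It lay below the filter value in 30D, which bounds the fall at 3.62-fold or more. Another of its probe sets was below the filter value in both groups, so its difference (-0.90 ± 0.12) is not read as a fall. A further probe set did not pass (-0.47 ± 0.13, limma adjusted p = 0.0614). The immunoglobulin-like adhesion list had 6 of 30 members higher and 1 lower, of which 1 and 1 were stable, and 3 of the rises were kept with the block. The stable rise was ALCAM, an adhesion molecule of epithelial and immune cells (0.35 ± 0.05). L1CAM, a neural adhesion molecule found in invasive tumors, rose from 6.93 and 6.79 to 7.74 and 7.61 (0.82 ± 0.13) but lost its call without 30D-1 or 30U-2 (adjusted p up to 0.0566).

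Among desmosomal proteins the cadherin DSC3 fell from 6.89 and 6.74 to 5.56 and 5.51 (-1.28 ± 0.07), and both of its other probe sets fell too. Of 11 members tested 2 rose and 2 fell, and DSC3 was the stable one. CDH1, the epithelial cadherin, read 11.65 and 11.68 in 30U against 11.82 and 11.85 in 30D, and its difference of 0.17 ± 0.06 did not pass (adjusted p = 0.0941). CDH2, the neural cadherin, differed by 0.23 ± 0.12 (adjusted p = 0.229) and the intermediate filament gene VIM by 0.29 ± 0.11 (adjusted p = 0.141), neither past the threshold. SNAI2, a repressor of CDH1, rose by 0.31 ± 0.05 but not without any 1 of the KYSE30 arrays (adjusted p up to 0.0824). In the list of mesenchymal genes and their transcription factors 4 of 21 rose and none fell, and FOXC2 was the stable one. FOXC2 rose from 5.20 and 5.17 to 6.09 and 5.94 (0.83 ± 0.08), and its change in KYSE180 was 0.72.

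Secreted matrix proteins mostly fell where they changed: 5 of 47 rose and 10 fell, of which 1 and 6 were stable. The rises are 10.6% of the list and the falls 21.3%, against 8.42% and 8.12% of all genes. COL12A1, a fibril-associated collagen, read 7.22 and 7.19 in 30U and 5.58 and 5.51 in 30D, a change of -1.66 ± 0.08. FREM2, a basement membrane protein, fell from 5.78 and 5.81 to 3.58 and 3.37, which is below the filter value and amounts to a fall of at least 2.53-fold. SPP1, which encodes osteopontin, read 5.03 and 5.32 against 3.79 and 3.22, at least 1.65-fold lower, with more spread between populations than most. EFEMP1, a fibulin, fell by 0.68 from a high level, and FBN2, a microfibril protein, by at least 1.16-fold. The stable rise was LAMB3, a chain of the laminin that anchors epithelia, which read 8.95 and 9.01 in 30U and 9.78 and 9.71 in 30D (0.76 ± 0.06). CCN2, a matricellular protein induced by mechanical strain, fell by 0.95 on the log2 scale but lost its call without any 1 of the KYSE30 arrays (adjusted p up to 0.0661).

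Cell surface glycans and tetraspanins moved in both directions. CD44, the hyaluronan receptor, rose from 11.18 and 11.28 to 11.69 and 11.71 (0.47 ± 0.07), and 7 of its 10 other probe sets rose as well. HS3ST1, a heparan sulfate sulfotransferase, rose by 0.69 ± 0.08, and GPC4, a glypican that carries heparan sulfate, fell by 0.68, in a list with 4 of 30 higher and 2 lower (2 and 1 stable). In the tetraspanin list 4 of 21 rose and 4 fell (19% each, against 8.42% and 8.12% of all genes), with 1 and 3 stable. TSPAN2 read 7.50 and 7.57 in 30U against 6.34 and 6.27 in 30D (-1.24 ± 0.14). TSPAN13 (-0.64 ± 0.06) and TSPAN12 (-0.70 ± 0.07) were also lower, while CD151, a partner of laminin-binding integrins, was higher (0.40 ± 0.06).

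Among genes of the cell cortex and cytoskeleton, the protein 4.1 family member EPB41L4A fell from 8.10 and 8.10 to 5.99 and 5.81 (-2.20 ± 0.09), and EPB41L1 fell by 0.61, in a list of the ezrin and protein 4.1 families with 4 of 19 higher and 4 lower (1 and 2 stable). FRMD4A, a scaffold of the same domain family, rose by 0.56 ± 0.08. MAP1B, a microtubule-associated protein of growing neurites, read 4.96 and 4.44 in 30U and 5.93 and 6.06 in 30D, and its rise was 0.97 in 30-A and 1.62 in 30-B. ANKRD1, a muscle and stress protein that is a YAP target, fell from 6.31 and 6.36 to 4.71 and 4.74 (-1.61 ± 0.05). In the list of the YAP and TEAD axis 4 of 31 rose and 2 fell, the falls being ANKRD1 and CCN2. The rises were TPM1 (0.56 ± 0.07) and F3 (0.38 ± 0.05), both stable, and CCN1 (0.37 ± 0.08) and NT5E (0.54 ± 0.13), not stable.

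Several growth factor and carrier genes fell. IGFBP2, a secreted carrier of insulin-like growth factors, read 6.73 and 6.70 in 30U and 5.30 and 5.35 in 30D (-1.39 ± 0.07). IGFBP7 fell by 0.82 and its other probe set fell too. IGFBP5 needs a reservation: the probe set used fell from 5.31 and 5.28 to 2.79 and 2.95, at least 1.79-fold, but none of its 4 other probe sets changed, and choosing probe sets on the KYSE30 arrays picks one of those (0.04, adjusted p = 0.831). In the list of the insulin-like growth factor axis 2 of 20 rose and 5 fell, with 0 and 3 stable. The platelet-derived growth factors PDGFC (10.51 and 10.53 against 9.72 and 9.75) and PDGFD (7.32 and 7.52 against 6.47 and 6.53) fell by 0.79 and 0.92. In KYSE180 the same genes differed by 1.20 and 0.81 in the other direction. FGFR3, a receptor for fibroblast growth factors, fell by 0.47, and NRP1, a coreceptor for vascular growth factors and semaphorins, rose from 7.11 and 7.05 to 7.73 and 7.70 (0.63 ± 0.08). In the list of fibroblast, vascular and platelet-derived growth factors and receptors 4 of 24 rose and 4 fell, with 1 and 3 stable.

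Several feedback genes of the ERK pathway rose. DUSP6, a phosphatase that ERK signalling induces and that acts back on ERK, read 8.12 and 8.09 in 30U against 8.92 and 8.88 in 30D (0.79 ± 0.10), and both of its other probe sets rose. SPRY4, a Sprouty inhibitor, rose by 0.75 ± 0.10 and IER3, an immediate early gene, by 0.52 ± 0.05. DUSP2, which acts on the same kinases, fell by 0.63. In this list 5 of 24 rose and 2 fell, of which 3 and 1 were stable. The rises are 20.8% of the list, against 8.42% of all genes, and the falls 8.33%, near the 8.12% of all.

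Other genes among the largest changes belonged to no single list. C1orf21 fell from 7.61 and 7.48 to 4.86 and 4.98 (-2.62 ± 0.07), and its other probe set fell too. PALMD, a paralemmin of the plasma membrane, fell to below the filter value, by 3.24-fold or more. NREP, a small protein found in regenerating neurons, fell by 1.53 on the log2 scale. PRR15L rose from 6.53 and 6.50 to 7.87 and 7.77 (1.31 ± 0.17), and GLIPR1 from 6.65 and 6.41 to 7.72 and 7.71, with all 3 of its other probe sets higher. CPEB2, a regulator of translation, rose by 1.05 ± 0.08, although its other probe set did not pass. In none of these did a 30D array overlap a 30U array, which holds for every called gene.

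Developmental signalling genes changed singly rather than as whole pathways. HEY1, a transcriptional repressor and direct Notch target, read 9.28 and 9.25 in 30U and 7.97 and 7.90 in 30D (-1.34 ± 0.06). HES2, of the related HES family, rose by 0.58 ± 0.05, and the Notch list held 5 of 29 higher and 2 lower, with 1 and 1 stable. Among Wnt receptors, FZD1 fell from 7.22 and 6.97 to 5.84 and 6.04 (-1.16 ± 0.10), FZD5 by 0.59 and LGR4, a receptor for R-spondins, by 0.76. The ligand WNT5B, which signals without beta-catenin in many cells, rose from 6.03 and 6.19 to 7.05 and 6.86 (0.84 ± 0.11), and the secreted protein DKK3 by 0.70 ± 0.08. The Wnt list had 4 of 37 higher and 6 lower, with 2 and 3 stable.

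The BMP list had 7 of 34 members higher and 6 lower, of which 3 and 5 were stable. BMP2, NOG, ACVR2A, SMAD6 and BAMBI were also called but were not stable, and their values are not given here. The genes that follow therefore do not stand for all called members. The ligand BMP4 rose by 0.38 ± 0.05 and FST, a secreted inhibitor of activins and BMPs, by 0.46 ± 0.06. All 3 stable ID genes, which encode inhibitors of basic helix-loop-helix factors and are BMP-SMAD targets, fell. ID2 read 10.61 and 10.54 in 30U and 9.67 and 9.63 in 30D (-0.93 ± 0.12), ID3 fell by 0.51 and ID1 by 0.50. SMAD1, a transducer of BMP signals, fell by 0.55. BMP7 fell by 0.80 on the probe set used, but its 3 other probe sets did not change, and the one picked on the KYSE30 arrays read 0.06 (adjusted p = 0.733).

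Transcription factors of squamous and foregut epithelium moved both ways, with 10 of 45 higher and 12 lower, 4 and 5 of them stable. SOX2, a lineage factor of the esophagus, read 9.79 and 9.81 in 30U and 7.85 and 7.88 in 30D (-1.94 ± 0.05), and a second probe set fell by 1.15. KLF12 fell from 5.71 and 5.81 to 4.82 and 4.46 (-1.12 ± 0.12). MEIS2 and MEIS1, cofactors of HOX proteins, fell by 0.42 and 0.47, and in KYSE180 they differed by 0.31 and 0.65 upward. FOXQ1, a forkhead factor, rose by 0.71 ± 0.09, GRHL3, a grainyhead factor of epidermal barrier formation, by 0.71 ± 0.09, SOX7 by 0.57 ± 0.05 and FOXE1 by 0.46 ± 0.05. SOX9, a factor of progenitor cells, read 8.94 and 8.92 against 9.95 and 9.89 (0.99 ± 0.18). Its call was lost without any 1 of the KYSE30 arrays (adjusted p up to 0.0619). SATB1, a chromatin organizer, fell by 0.81, and the suprabasal keratin KRT13 fell from 9.21 and 9.21 to 8.12 and 8.22 (-1.04 ± 0.06). KRT5 differed by 0.21 ± 0.10 and did not pass (adjusted p = 0.210). KRT14 was below the filter value in both groups, so its difference (0.59 ± 0.10) is not read as a rise.

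DNA replication genes fell together by small amounts. Of 54 members tested 32 fell and none rose, against 8.12% of all genes lower, and the list's median was -0.26 (-0.27 in 30-A, -0.26 in 30-B, and -0.03 in KYSE180). The falls ran from -0.49 to -0.22 on the log2 scale, and 51 of the 54 differences were below 0. MCM7, a subunit of the replicative helicase, read 10.27 and 10.27 in 30U and 9.81 and 9.75 in 30D (-0.49 ± 0.06). Its partner MCM6 fell from 11.20 and 11.15 to 10.67 and 10.73 (-0.48 ± 0.06). CDC45, which joins the helicase, RFC2, of the clamp loader, PRIM1, a primase subunit, POLA2, of polymerase alpha, and TYMS, which makes thymidylate, fell by 0.47, 0.46, 0.43, 0.41 and 0.46. For each of these genes both 30D arrays were below both 30U arrays, as for every gene called lower. Of the 32, 11 were stable; 12 to 14 fell without 1 of the KYSE30 arrays, and 22 with the block.

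E2F1 and CCNE1, members of the list that drive entry into S phase, did not pass, with differences of 0.10 ± 0.06 (adjusted p = 0.285) and 0.05 ± 0.07 (adjusted p = 0.679). The G1 list had 1 of 18 higher and 6 lower, with 1 and 3 stable. CCND1, which encodes cyclin D1, rose from 10.32 and 10.28 to 10.73 and 10.67 (0.40 ± 0.05). CDKN1A, a p53-induced inhibitor of cyclin-dependent kinases, fell from 9.85 and 9.97 to 9.02 and 8.90 (-0.95 ± 0.07). CCNG1, another p53 target, fell by 0.63 and RBL2, a pocket protein, by 0.43. In the mitosis list 1 of 56 rose (1.79%) and 9 fell (16.1%, against 8.12% of all genes), with a median of -0.06. CENPK, a kinetochore protein, fell by 0.80, NCAPD2, a condensin subunit, by 0.57 and SPC24 by 0.54, and these 3 were the stable members.

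Core histone genes went the other way, in a set assembled after the values were seen. Of 25 genes for H2A, H2B, H3 and H4 of the replication-dependent clusters, 12 rose and none fell, with a median of 0.28 (0.29 in 30-A and 0.30 in 30-B, 0.01 in KYSE180). H4C8 rose from 6.17 and 6.36 to 7.08 and 7.12 (0.84 ± 0.12), H3C6 from 6.23 and 6.22 to 6.75 and 6.75 (0.52 ± 0.08) and H2BC5 from 10.83 and 10.83 to 11.26 and 11.24 (0.42 ± 0.06). These 3 were the stable ones. Without 1 of the KYSE30 or KYSE180 arrays the count was 3 to 11. The copies of these genes are nearly identical, so single probe sets may read several of them, and most of their transcripts end in a stem-loop in place of a poly(A) tail. Linker histone (H1) genes were not in the set. Of those tested, H1-2 (0.50 ± 0.10) and H1-6 (0.36 ± 0.09) were called higher. H1-4 was called lower, from a mean of 4.74 in 30U to below the filter value in 30D. None of these linker calls was stable, and the other linker genes did not pass.

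E2F factors bind a site in the promoters of many replication genes, and the 250 bases before the first listed start of each gene were searched for TTTCCCGC, TTTGGCGC, TTTCGCGC and TTTGCCGC on both strands. Promoters from RefSeq (GRCh38.p14) were matched for 11334 of the 14180 genes. A site was found in 15 of 46 matched replication genes (32.6%), in 4.16% of all matched promoters, in 4.58% of those of the genes that fell and in 3% of those that rose. NF-Y letters (CCAAT) were found in 54.3% of the replication promoters against 34.6% of all. CDC45, RFC2 and PRIM1, among the falls named above, held no site in these bases, nor did MCM2 and CHAF1B. MCM3 and MCM7 held a site that is not shown. The following 60-base stretches, written 5′ to 3′ on the gene's strand, show the site in capitals for other members that fell. Overlapping matches are capitalised as 1 run.
MCM6: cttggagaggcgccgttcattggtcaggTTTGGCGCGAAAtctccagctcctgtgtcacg
GINS2: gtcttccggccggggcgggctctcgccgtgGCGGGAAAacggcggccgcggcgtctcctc
TYMS: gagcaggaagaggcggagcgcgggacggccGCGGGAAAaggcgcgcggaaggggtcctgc
POLA2: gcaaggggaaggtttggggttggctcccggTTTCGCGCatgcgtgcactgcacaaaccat
PCNA: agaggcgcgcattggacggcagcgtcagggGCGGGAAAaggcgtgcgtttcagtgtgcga
They lie at chr2:135876502-135876561 on the minus strand (MCM6), chr16:85688956-85689015 on the minus strand (GINS2), chr18:657584-657643 on the plus strand (TYMS), chr11:65261879-65261938 on the plus strand (POLA2) and chr20:5126652-5126711 on the minus strand (PCNA). GINS2 and PCNA, a helicase cofactor and the sliding clamp, fell by 0.41 and 0.33, and PCNA was not among the stable members. A match describes the letters and does not show binding in these cells.

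**Figure D3:**
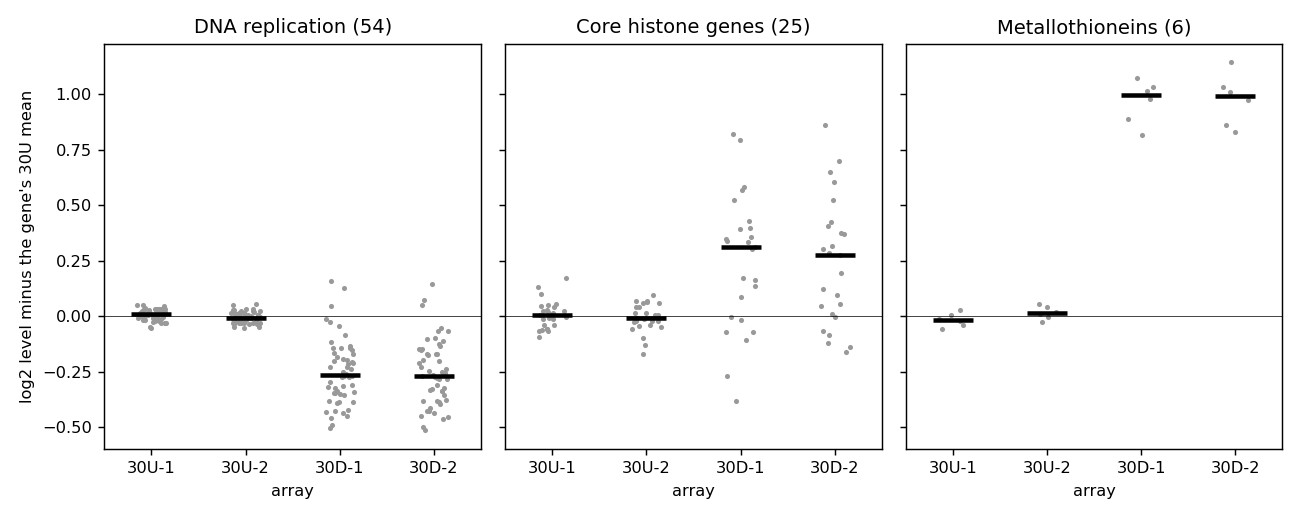
Level of each gene on each KYSE30 array minus that gene's 30U mean (log2), for DNA replication genes, core histone genes and metallothioneins; grey points are genes and black bars are medians on an array. On both 30D arrays most of the 54 replication genes lie below 0, most of the 25 histone genes above it, and all 6 metallothioneins well above it.

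MYC rose, and its list held more rises than falls. MYC read 8.54 and 8.50 in 30U and 9.51 and 9.57 in 30D (1.02 ± 0.06, adjusted p = 0.00017). In its list 14 of 38 rose and 2 fell, with a median of 0.15 against 0.01 over all genes, but MYC alone was stable among the rises. The block left 8 rises, and leaving out 30U-1, 30U-2, 30D-1 or 30D-2 left 4, 1, 2 and 3. MNT, a repressor that competes for the partner of MYC, fell from 8.98 and 8.92 to 8.42 and 8.36 (-0.56 ± 0.05). Of other genes of the MYC partner network MXD1 (0.29), MGA (0.37) and MLX (0.25) rose and MXI1 fell by 0.29, none of them stable. The remaining 10 rises, also not stable, were of ribosome production or of nucleotide and polyamine synthesis, such as RRP12 (0.39), POLR1B (0.36) and SRM (0.42). The E-box letters CACGTG, which MYC dimers can bind, were found in 8.28% of promoters of genes that rose and in 8.7% of all.

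The metallothioneins, small proteins that bind zinc and copper and are induced by metals, rose as a cluster of neighbours. MT2A, MT1E, MT1F, MT1G, MT1H and MT1X follow each other on chromosome 16 among the tested genes, and all 6 rose, the longest such run of neighbours found in either direction. MT1F read 9.82 and 9.76 in 30U and 10.86 and 10.93 in 30D (1.11 ± 0.06). MT1X rose from 11.15 and 11.14 to 12.18 and 12.18 (1.03 ± 0.05), and MT2A from 11.96 and 11.98 to 12.79 and 12.81 (0.83 ± 0.05). MT1E, MT1H and MT1G rose by 1.01 ± 0.11, 0.98 ± 0.06 and 0.88 ± 0.05. No 30D array overlapped a 30U array in any of them, as in every called gene, and all 6 rises were stable. Their sequences are so alike that their probe sets may cross-hybridize, and the 6 values are not independent. In KYSE180 5 of the 6 rose as well, by less: the median change was 0.35 there and 0.99 in KYSE30, and the difference between the lines passed for all 6.

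The zinc exporter SLC30A1, like the metallothioneins a target of the metal-sensing factor MTF1, rose from 10.18 and 10.14 to 10.55 and 10.53 (0.38 ± 0.06) but not without 30U-2 (adjusted p = 0.0505). SLC39A10, a zinc importer, fell from 10.21 and 10.19 to 9.60 and 9.63 (-0.58 ± 0.05). Another importer, SLC39A6, went the other way (0.24 ± 0.06) and was not stable. Over the list of metallothioneins and zinc transporters 9 of 16 rose and 1 fell, of which 6 and 1 were stable.

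MTF1 recognises metal response elements, searched here by their core letters TGCACNC and TGCGCNC on both strands. These short letters occur in 32.2% of all matched promoters and in 29.6% of those of the genes that rose. All 3 metallothioneins with a matched promoter held them, with a median of 7 matches in 250 bases. The 100-base stretches with matches in capitals, 5′ to 3′ on the plus strand of GRCh38.p14, are shown because all 6 tested genes of the family rose.
MT2A: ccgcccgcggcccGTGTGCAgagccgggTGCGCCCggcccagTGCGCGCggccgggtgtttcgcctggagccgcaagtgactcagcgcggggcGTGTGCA
MT1H: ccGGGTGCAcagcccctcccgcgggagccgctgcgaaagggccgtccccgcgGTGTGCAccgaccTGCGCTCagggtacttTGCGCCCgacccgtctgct
MT1X: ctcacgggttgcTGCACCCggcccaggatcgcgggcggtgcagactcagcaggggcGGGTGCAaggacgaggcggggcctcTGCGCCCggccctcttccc
They lie at chr16:56608403-56608502 (MT2A), chr16:56669589-56669688 (MT1H) and chr16:56682336-56682435 (MT1X), upstream of each gene's start.

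Secreted inflammatory and protease genes rose more than they fell. In the chemokine and cytokine list 7 of 32 rose (21.9%, against 8.42% of all genes) and none fell, 5 of them stable. CCL5, a chemokine for T cells and monocytes, read 6.44 and 6.57 in 30U and 7.87 and 7.79 in 30D (1.33 ± 0.08), and both of its other probe sets rose. CXCL8, which attracts neutrophils, rose by 0.71 ± 0.11, IL4R, a receptor chain for interleukins 4 and 13, by 0.71 ± 0.08, and IL32 by 0.58 ± 0.08. IL1RN, the secreted antagonist of the interleukin-1 receptor, rose from 6.23 and 6.06 to 7.57 and 7.60. Of its other probe sets 1 rose (0.85 ± 0.11) and 1 did not pass (0.30 ± 0.12, limma adjusted p = 0.165). IL1A (0.09 ± 0.21) and IL1B (0.15 ± 0.13) did not pass (adjusted p = 0.817 and 0.513), although another probe set of IL1A rose. CASP1, the protease that matures interleukin-1 beta, rose by 0.82 ± 0.08, and all 3 of its other probe sets rose. The list of NF-kB factors and feedback genes held 5 of 24 higher and 2 lower, with none of either stable.

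Protease inhibitors and proteases gave 9 of 40 higher and 3 lower, with 6 and 1 stable. SLPI, a secreted inhibitor of elastase, read 6.38 and 6.23 against 7.36 and 7.39 (1.07 ± 0.06), and SERPINB8, an intracellular serpin, rose by 0.92 ± 0.08. PLAU, the urokinase protease that activates plasmin, rose from 10.23 and 10.26 to 10.92 and 10.90 (0.67 ± 0.09), and its receptor PLAUR by 0.46 ± 0.06. TFPI2, a secreted inhibitor of plasmin and trypsin, fell by 0.70. The calcium-binding proteins S100P (0.78 ± 0.09) and S100A2 (0.58 ± 0.06) rose, in a list with 5 of 24 higher and none lower, these 2 being the stable ones. THBD, the thrombin receptor thrombomodulin, rose by 0.81 in 30-A and 1.52 in 30-B (mean 1.16 ± 0.19) and lost its call without 30D-2 (adjusted p = 0.0514). ADAM19, a membrane metalloprotease, rose by 1.06 ± 0.24 and lost its call without any 1 of the KYSE30 arrays (adjusted p up to 0.122).

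In the list of amino acid transport and metabolism 5 of 43 rose and 9 fell, with 1 and 6 stable. BCAT1, which transfers amino groups from branched-chain amino acids to glutamate, read 10.16 and 10.10 in 30U and 8.25 and 8.17 in 30D (-1.93 ± 0.06). The glutamate transporter SLC1A3 fell from 8.65 and 8.66 to 7.48 and 7.39 (-1.21 ± 0.06), and SLC1A1, a transporter of the same family, rose by 0.80 ± 0.09. GLUL, the glutamine synthetase, fell from 11.46 and 11.44 to 10.37 and 10.46 (-1.03 ± 0.05), and the cystine and glutamate exchanger SLC7A11 by 0.86. The serine synthesis enzymes PSAT1 and PHGDH fell by 0.51 and 0.41. The other rises were SLC7A5, a transporter of large neutral amino acids (0.43), ASL (0.34), ARG2 (0.27) and SLC36A1 (0.21), none of them stable.

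Fatty acid genes gave 3 of 36 higher and 9 lower, with 0 and 5 stable. The rises are 8.33% of the list, near the 8.42% of all genes, and the falls 25%, against 8.12%. FASN, the fatty acid synthase, fell from 10.04 and 10.12 to 9.12 and 9.22 (-0.91 ± 0.12), SREBF1, the lipogenic transcription factor, by 0.61, LPIN1 by 0.58 and ACACA, the carboxylase that starts the pathway, by 0.43. MGLL, a lipase that releases fatty acids from monoglycerides, rose from 6.53 and 6.72 to 7.80 and 7.80 (1.18 ± 0.08). In the list of glycolysis and hypoxia genes 6 of 40 rose and 1 fell, and the stable rises were NDRG1 (0.69 ± 0.05), the hexokinase HK2 (0.59 ± 0.07) and the phosphofructokinase PFKP (0.47 ± 0.06). In the list of the mitochondrial respiratory chain 1 of 48 rose, COXFA4L3, which read 8.23 and 8.29 in 30U and 9.86 and 9.90 in 30D, and 4 fell, none of them stable and 1 kept with the block. Those falls are 8.33% of the list, near the 8.12% of all genes.

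DHRS3, which reduces retinal to retinol, fell from 10.28 and 10.25 to 8.93 and 8.89 (-1.36 ± 0.07), in a retinoid and aldehyde dehydrogenase list with 3 of 29 higher and 7 lower (1 and 3 stable). Genes of prostaglandin synthesis gave none higher and 3 of 19 lower, 2 of them stable. PLA2G4A, the phospholipase that frees arachidonic acid, read 4.87 and 5.03 in 30U and 2.99 and 3.31 in 30D, under the filter value, which bounds its fall at 1.41-fold or more. The potassium channel KCNJ2 fell from 7.58 and 7.48 to 6.34 and 6.28 (-1.22 ± 0.06), while in KYSE180 it differed by 0.89. KLHL13, a cullin-3 adaptor, fell from 6.35 and 6.30 to 3.45 and 3.41, or at least 3.65-fold. LAMP3, a lysosomal membrane protein that interferon induces, rose from 6.63 and 6.55 to 8.16 and 8.11 (1.55 ± 0.08).

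**Figure D4:**
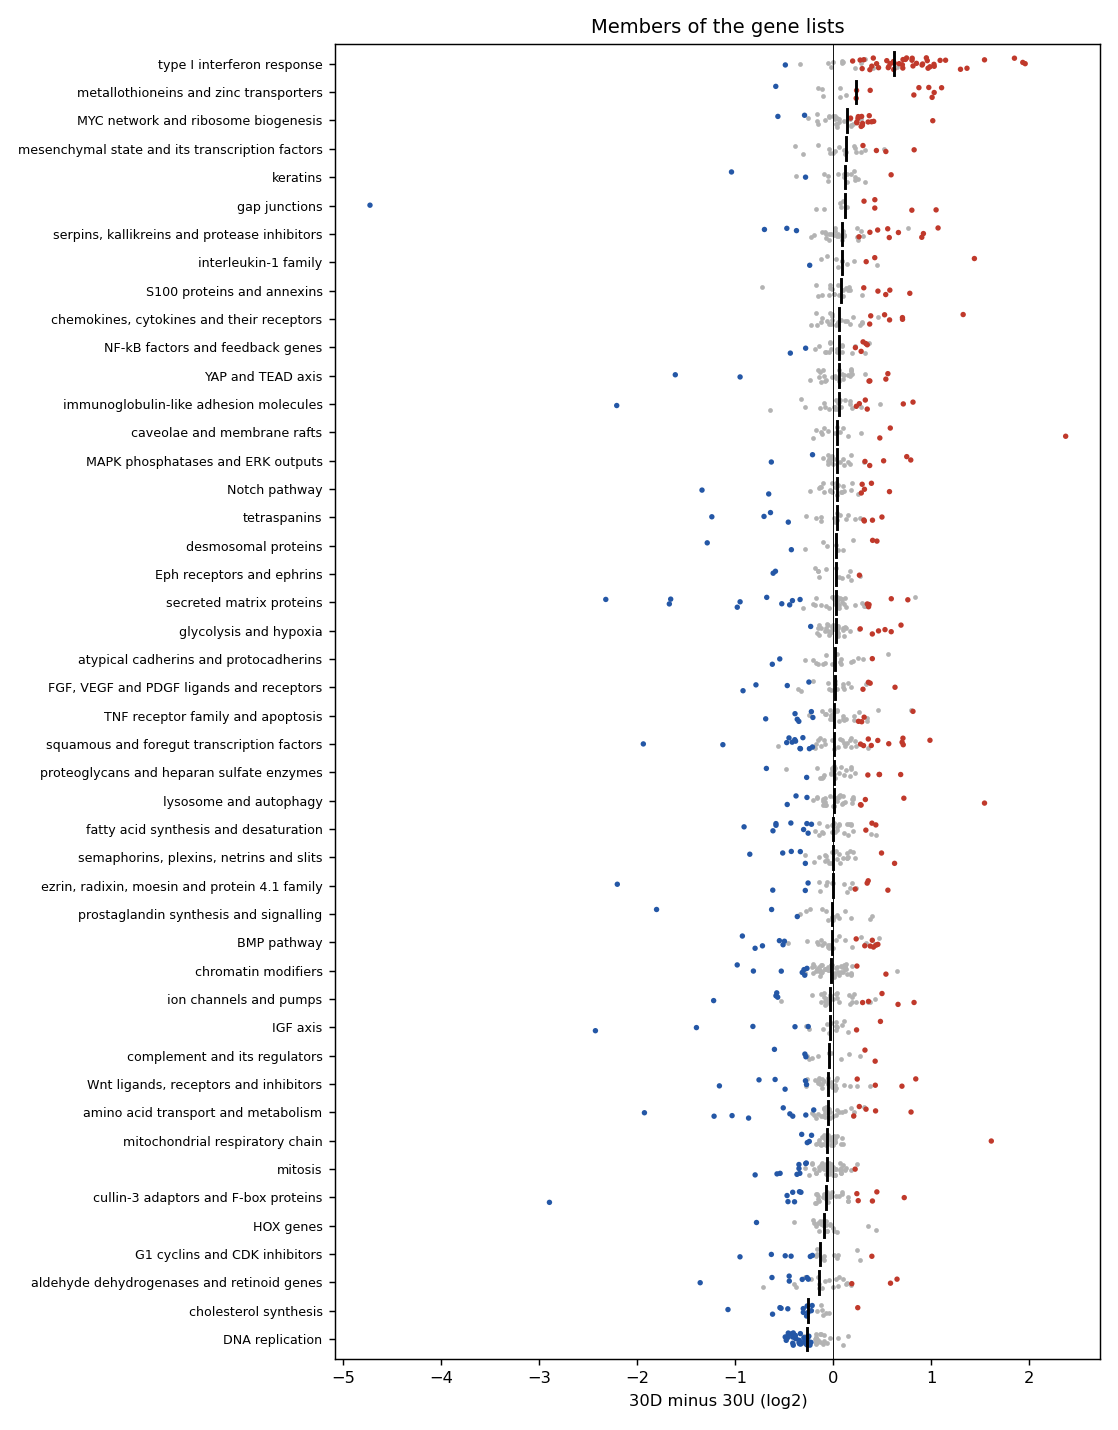
Change in KYSE30 (30D minus 30U, log2) of each member of the gene lists described, sorted by list median (black bar); red and blue points passed the threshold upward and downward and grey points did not. The interferon list has the highest median (0.63) and DNA replication the lowest (-0.26), while most other medians are close to 0 with a few members far out.

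Other lists are given by their counts, and several held larger shares than the 8.42% higher and 8.12% lower of all genes. Falls were 20% of the complement list, 18.4% of cullin-3 adaptors and F-box proteins, 16.7% of semaphorins and their partners and 16.2% of the TNF and apoptosis list. Chromatin modifiers had 12.3% lower and 3.51% higher. Rises reached at most 13.5% in these lists, for lysosome and autophagy. Semaphorins, plexins, netrins and slits gave 2 of 30 higher and 5 lower (1 and 2 stable), Eph receptors and ephrins 1 of 15 and 2 (0 and 1), and atypical cadherins 1 of 20 and 2 (0 and 1). Chromatin modifiers gave 2 of 57 higher and 7 lower (1 and 2 stable), HOX genes 0 of 22 and 1 (0 and 0), and genes of the TNF receptor family and apoptosis 4 of 37 and 6 (1 and 1). Genes of the YAP and TEAD axis gave 4 of 31 higher and 2 lower (2 and 1 stable), complement 2 of 15 and 3 (0 and 1), and lysosome and autophagy 5 of 37 and 3 (2 and 1). Ion channels and pumps gave 5 of 40 higher and 4 lower (3 and 3 stable), and cullin-3 adaptors and F-box proteins 5 of 38 and 7 (1 and 2). The stable counts include the chromatin gene SMARCA2 (mean 3.24 in 30U, 2.26 in 30D) and the channel gene CLCA2 (2.79 and 3.46). Both lay below the filter value in both groups, so they are not read as changed.

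Across these lists, interferon response genes stood highest (42 of 55 rose and 1 fell, 36 and 1 of them stable, median 0.63) and cholesterol synthesis genes second lowest (1 of 19 rose and 12 fell, median -0.25). Of the cholesterol calls 0 rises and 5 falls were stable, and 0 and 8 were kept with the block. Members of the interferon list accounted for 42 of the 1194 rises. In their matched promoters the interferon-stimulated response element was found in 56.5%, against 2.15% of all promoters, 4.66% of those of all genes that rose and 1.92% of those that fell. An NF-kB site was found in 1.45% of promoters of genes that rose and 0.573% of all.

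Chromosome 7 held many more falls than rises, a pattern found, and divided at CHCHD2, after the values were seen. Of its 660 tested genes 23 rose and 116 fell, with a median of -0.06. On the next most unequal chromosome with more falls, 12, 46 rose and 77 fell. Some chromosomes leaned towards rises, such as 15 (43 rose and 22 fell) and 3 (89 rose and 54 fell). On the chromosomes other than 7 together, 1171 of 13520 tested genes rose and 1036 fell. The tested genes were taken in RefSeq order in blocks of 20 neighbours. The 11 blocks before CHCHD2 had medians between -0.08 and 0.12, of which 6 were below 0. Of the 22 blocks from CHCHD2 to the end of the chromosome, 21 had a median below 0, 19 of them in both parental populations. The lowest, from TMEM60 to STEAP1, had a median of -0.18 (-0.20 in 30-A and -0.16 in 30-B). Over all chromosomes 42.3% of 697 such blocks had a median below 0, and 90% lay between -0.08 and 0.10.

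Falls outnumbered rises on both sides of CHCHD2, against 8.42% higher and 8.12% lower over all genes. Before CHCHD2, 12 of 220 genes rose (5.45%) and 32 fell (14.5%), with a median of -0.01. From CHCHD2 on, 11 of 440 genes rose (2.5%) and 84 fell (19.1%), and the median was -0.09 in each population and 0.04 in KYSE180. In KYSE180 3 of the 22 blocks had a median below 0. Besides FZD1, AUTS2, a regulator of neural development, fell from a mean of 8.19 to 7.09 (-1.10 ± 0.07), DENND11 by 0.81, TFPI2 by 0.70, TSPAN12 by 0.70 and SGCE, a sarcoglycan, by 0.52. The DNA replication genes MCM7, RFC2, RPA3 and POLD2 lie on chromosome 7. Without them 28 of 50 replication genes still fell, with a median of -0.26. Without 1 array the count of falls from CHCHD2 on was 26 to 90, and 60 with the block.

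**Figure D5:**
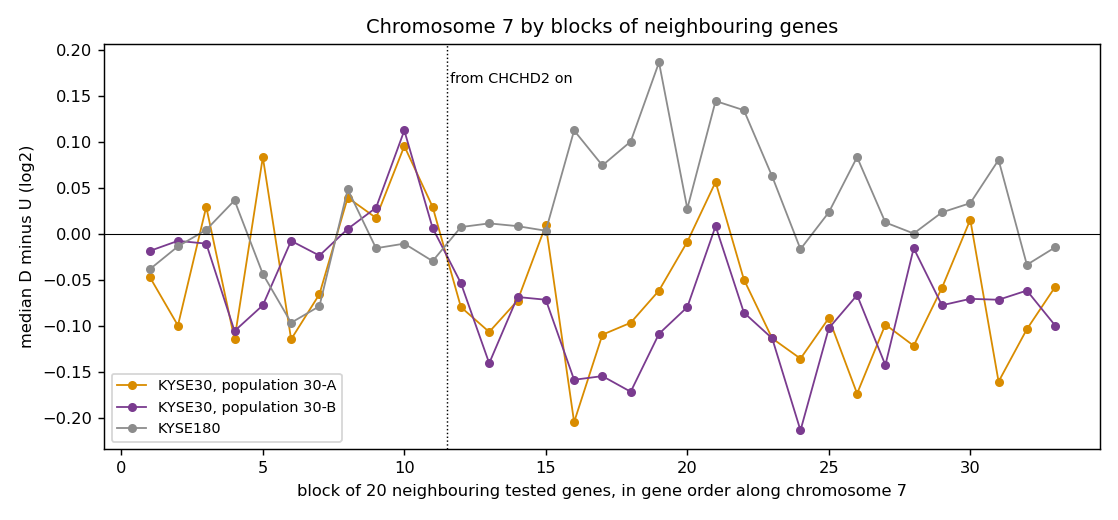
Median D minus U change (log2) of successive blocks of 20 neighbouring tested genes along chromosome 7, in gene order, for both KYSE30 parental populations and for KYSE180; the dotted line marks the block that begins with CHCHD2. To its right the medians of both KYSE30 populations lie below 0 in 19 of 22 blocks, and the KYSE180 median lies below 0 in 3.

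The largest KYSE30 changes were rarely seen in KYSE180. The change differed between the lines for 1723 genes (12.2%). Of the 30 genes with the largest changes in KYSE30 outside the interferon and cholesterol lists, 29 differed between the lines, ADAM19 being the exception (adjusted p = 0.241 for the difference). In KYSE180 3 of the 30 changed the same way and 3 the opposite way. GJA1, SOX2 and RFTN1 differed there by 0.07, -0.03 and -0.13, without passing the threshold. These genes were picked for their size in KYSE30, which favours a difference in that direction.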

How the data were processed

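RNA of 8 sublines was hybridised to 1-colour Affymetrix arrays of 54675 probe sets. The deposited table holds log2 expression values that the authors made by RMA, per the submitters' processing notes; no version of RMA is named there. Matched miRNA arrays were not used here. One gene list is not reported here. Probe sets with 1 gene symbol (41091) were named from the platform annotation and RefSeq. Probe sets averaging at least the 40th percentile (log2 4.46) were kept, and each gene was read from its probe set with the highest mean, leaving 14180 of 19775 genes. The 4 group means were fitted to all 8 arrays with limma 3.58.1 in R 4.3.3 (4 residual degrees of freedom), with Benjamini-Hochberg adjustment over all tested genes and a threshold of 0.05; the fit was tested on simulated data. Precision is limited by how few arrays there are. The labels describe the replicates as separate parental populations.

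The members and gene lists were chosen with earlier results of these data known. The rule for named genes took the 15 largest rises and falls outside the interferon and cholesterol lists, up to 4 called members per list and direction by smallest p, and a few fixed markers; of these the text mostly gives members called in every fit leaving out 1 array. Chromosome 7 genes, histones, PLAU, PLAUR, SOX9, MT1E, MT1H, SLC30A1, SLC39A6, IL1A, IL1B, E2F1, CCNE1 and MITF were chosen after their values were seen. So were KRT7, KRT8, KRT18, KRT19 and further called members of the amino acid and MYC lists. The labels tie each 30D array to the 30U array of its parental population. Deviations of 30U-1 and 30D-1 from their group means correlated at -0.0228, and those of a KYSE180 pair at 0.0203. Alternatives were other filters, centring, the mean of probe sets, KYSE30 arrays only, an intensity trend, the block and leaving out each array.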

Additional observations from a re-analysis of the deposited data

Results flagged for a closer look

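The D minus U change differed between the lines for 29 of the 30 genes with the largest KYSE30 changes, by limma's test of the difference adjusted over all 14180 genes. The values below are the KYSE30 change minus the KYSE180 change on the log2 scale. The genes were picked for their KYSE30 change, so a difference is favoured. Where a group mean lies below the filter value, the log2 difference is the measured one and shows no more than a bound on the change.

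Among genes higher in 30D the difference was 2.51 for RFTN1, 1.78 for IL1RN, 1.67 for COXFA4L3, 1.58 for GLIPR1, a secreted protein that p53 induces, and 1.46 for MGLL. It was 1.31 for PRR15L, 1.30 for MAP1B, 1.30 for SLPI, 1.26 for GJA3, 1.18 for THBD and 1.04 for CCL5. It was 0.79 for MT1F and 0.77 for CPEB2, a regulator of translation. UGT8 measured 1.03, but it was below the filter value in both KYSE30 groups and is not read as a rise.

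Among genes lower in 30D the difference was -3.98 for EPB41L4A, -2.51 for COL12A1, -2.19 for ANKRD1, -2.11 for C1orf21, -1.91 for SOX2, -1.87 for BCAT1 and -1.44 for NREP. For the genes below the filter value in 30D the measured difference was -4.79 for GJA1, -2.92 for KLHL13, -2.23 for SPP1, -2.18 for FREM2 and -2.13 for CNTN1. It was -2.06 for PALMD, -0.80 for PLA2G4A and -2.83 for IGFBP5, whose 4 other probe sets did not change in KYSE30. EPB41L4A, COL12A1 and ANKRD1 rose in KYSE180, by 1.77, 0.85 and 0.58, and C1orf21, PLA2G4A and MT1F changed in the same direction in both lines.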

How the results depend on the processing

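With 2 arrays a group, counts of small changes depend on each array, and larger changes less so. Leaving out 1 array gave 834 to 2553 changed genes (406 to 1324 higher, 428 to 1229 lower) and 84 to 96 changed at least 2-fold (25 to 32 higher, 56 to 65 lower). The same fits gave 12 to 34 lower DNA replication genes, 1 to 15 higher MYC and ribosome genes, 6 to 9 higher metallothionein and zinc genes, and 727 to 1702 genes that differ between the lines. The last count was 764, 739, 727 and 781 without 30U-1, 30U-2, 30D-1 and 30D-2, and 1104 without the second U array of KYSE180. It was 2700 with an intensity trend, 1142 with no filter and 1011 with the replicate block. Higher MYC and ribosome genes numbered 9 with no filter, 8 with the block, and 7 with the block on the KYSE30 arrays alone. Of the 2346 calls, 1616 were shared with the block fit and 1663 with the fit with no filter. Values turned for IGFBP5 (0.043), BMP7 (0.055) and SMARCA2 (0.002) with the filter on the KYSE30 arrays, and for WNT5A (-0.046) and PHC2 (-0.115) with the mean of probe sets. In these a different or a further probe set is read. Signal over background limits changes in genes near the filter value. Of the 30 genes with the largest changes, 26 kept their call in all settings.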

Other observations

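The parental populations differed most in genes near the filter value, chosen here after their values were seen. In 25 genes the changes of 30-A and 30-B were at least 1 log2 unit apart, and 0 of these passed limma's adjusted threshold for the mean change. KLHDC8B read 3.70 and 5.26 in 30U-1 and 30U-2, and 4.98 and 4.28 in 30D-1 and 30D-2, so that 30D was higher by 1.28 in 30-A and differed by -0.98 in 30-B. FA2H, which hydroxylates fatty acids, stood at 5.23 in 30D-2 and between 3.72 and 3.95 on the other KYSE30 arrays.

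Besides the metallothioneins, the longest runs of neighbouring tested genes called in 1 direction held 5 genes. DLX6-AS1, DLX6, DLX5, SDHAF3 and ASNS fell on chromosome 7. OCIAD2, DCUN1D4, SGCB, USP46 and DANCR rose on chromosome 4, and TNIP1, ANXA6, CCDC69, GM2A and SLC36A1 on chromosome 5. Of these runs 2, 0 and 1 members were called in each of the 8 fits leaving out 1 array (DLX6-AS1, SDHAF3 and GM2A), so none of the 3 runs holds in all of them, while all 6 metallothioneins were called in each.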
